A study of Mus musculus with 39 samples.

Results

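Acceptor microglia sampled after 300 min of co-culture were compared with acceptor microglia sampled after 60 min, to ask which transcripts that stood higher in the opening minutes of co-culture stood lower again at the late time. The 6 libraries compared, 3 of Acceptors_TW_300min and 3 of Acceptors_TW_60min, were chosen by their labels and belong to a series of 39 libraries in 13 groups of 3. All were primary microglia from neonatal C57BL/6 mice, grown on an astrocyte layer in medium that held L929 cell supernatant and then shaken off. Acceptors received no alpha-synuclein and were stained with CellTracer Violet for 15 min. They then shared medium, without touching, with donor microglia that had taken up 1 µM Atto-488-labelled alpha-synuclein over 14 h. The other acceptor groups were collected at 0, 15, 30 and 150 min, and the donor groups at the same times as the acceptors. The letters TW are not spelled out in the labels. Brains were pooled in a flask, and the labels do not say whether the 3 libraries of a group came from separate cultures, so p-values measure the spread between these libraries, which may be technical. No group of acceptors was kept alone for 60 or 300 min, so time in co-culture and time since handling cannot be told apart.

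Immediate early genes are transcribed within minutes of a stimulus from factors already present in the cell, without new protein. Their mRNAs are short-lived, and many of their products, such as the phosphatase DUSP1, the decay factor tristetraprolin and the inhibitor IκBα, act to shut the same response off. In macrophages and microglia, which are resident macrophages of the brain, they are followed by slower cytokine and metabolic genes. The genes described most closely are the AP-1 subunits Fos, Fosb and Junb, the nuclear receptor Nr4a1, the antiproliferative cofactor Btg2 and Dusp1.

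Their promoters are shown because the fitted level of each of these 6 genes was lower at 300 than at 60 min. Fos did not reach an unadjusted p under 0.05 (edgeR) and the groups of Btg2 overlapped, as given below. The 6 were picked with their values known, and no promoter of another gene, lower or not, is shown for comparison. Each sequence is the 250 bases before the RefSeq gene start on GRCm38.p6, written in the direction of transcription. The windows of Nr4a1 and Dusp1 lie inside the intervals that GENCODE, used for the gene positions below, gives these genes. Capitals mark the core TGACG of the cyclic AMP response element on either strand, so that CGTCA is the same site read on the other strand.
Fos, chr12:85473640-85473889, plus strand: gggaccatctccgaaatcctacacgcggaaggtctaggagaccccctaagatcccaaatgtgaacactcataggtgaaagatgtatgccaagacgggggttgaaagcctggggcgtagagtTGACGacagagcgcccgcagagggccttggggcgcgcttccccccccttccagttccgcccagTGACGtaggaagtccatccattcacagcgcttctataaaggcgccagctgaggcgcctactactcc
Fosb, chr7:19310046-19310295, minus strand: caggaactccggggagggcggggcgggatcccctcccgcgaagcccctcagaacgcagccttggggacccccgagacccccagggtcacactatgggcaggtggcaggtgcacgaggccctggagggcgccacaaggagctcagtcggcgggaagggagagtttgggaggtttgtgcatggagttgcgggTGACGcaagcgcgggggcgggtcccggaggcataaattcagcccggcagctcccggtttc
Junb, chr8:84978749-84978998, minus strand: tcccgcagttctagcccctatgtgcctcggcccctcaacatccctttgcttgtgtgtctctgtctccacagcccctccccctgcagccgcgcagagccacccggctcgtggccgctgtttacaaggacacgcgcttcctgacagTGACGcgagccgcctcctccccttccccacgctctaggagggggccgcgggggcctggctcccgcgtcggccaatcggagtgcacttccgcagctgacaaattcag
Nr4a1, chr15:101266596-101266845, plus strand: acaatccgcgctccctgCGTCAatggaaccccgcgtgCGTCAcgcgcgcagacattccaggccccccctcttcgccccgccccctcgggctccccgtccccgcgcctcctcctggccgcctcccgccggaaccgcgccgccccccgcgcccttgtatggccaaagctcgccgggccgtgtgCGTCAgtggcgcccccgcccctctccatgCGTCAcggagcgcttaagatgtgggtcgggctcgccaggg
Dusp1, chr17:26508473-26508722, minus strand: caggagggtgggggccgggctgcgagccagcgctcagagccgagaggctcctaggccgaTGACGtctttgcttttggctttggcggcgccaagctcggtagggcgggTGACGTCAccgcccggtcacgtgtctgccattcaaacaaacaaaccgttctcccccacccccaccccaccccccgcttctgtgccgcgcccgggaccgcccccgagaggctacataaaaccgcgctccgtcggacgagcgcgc
Btg2, chr1:134079156-134079405, minus strand: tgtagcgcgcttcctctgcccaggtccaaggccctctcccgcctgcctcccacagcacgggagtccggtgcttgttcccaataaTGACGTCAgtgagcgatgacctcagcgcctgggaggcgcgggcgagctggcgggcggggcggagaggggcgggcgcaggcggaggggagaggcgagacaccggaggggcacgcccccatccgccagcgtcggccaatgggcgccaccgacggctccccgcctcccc

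The core TGACG was found at 2 places before Fos, 1 before Fosb, 1 before Junb, 4 before Nr4a1, 3 before Dusp1 and 2 before Btg2. It was found at least once in 17.77% of 32851 RefSeq promoter windows of 250 bases and at 2 or more places in 3.902%. The palindrome TGACGTCA, which reads the same on both strands and holds the core on each, lay before Dusp1 and Btg2 and in 1.546% of all windows. A strict CArG box (CC, 6 bases of A or T, GG), the binding site of serum response factor, was not found in these 6 windows. It was found in 1.467% of all. Sites beyond the 250 bases, or with a looser sequence, were not searched for, so its absence here does not mean that a gene lacks one. An NF-kB site was found before Fos and Fosb and in 3.899% of all windows. These matches describe letters only, since binding was not measured.

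The 6 libraries held 8649169 to 14743934 counts and between 11951 and 13611 genes with a count. Replicate 2 at 300 min stood apart: it had the fewest counts and the fewest genes of all 39 libraries, where the other 38 had 12379 to 13896 genes. In it, 43.3% of the tested genes lay more than 2-fold from the mean of the other 2 libraries at 300 min, against 13.1 to 24.0% for the remaining 5 libraries. The summed level of 14 microglia and macrophage identity genes was 36617 CPM (counts scaled to library size) in it, 13737 to 16474 CPM at 60 min and 14429 to 16188 CPM in the other 2 libraries at 300 min. Astrocyte markers summed to 30.4 CPM in replicate 2, 17.3 to 49.7 CPM at 60 min and 20.8 to 49.0 CPM in the other 2 libraries at 300 min. In the same order, neuron markers summed to 11, 5.71 to 29.5 and 4.23 to 31.6 CPM, fibroblast and vascular markers to 61.8, 37.0 to 75.9 and 28.8 to 36.4 CPM, and border macrophage markers to 1575, 1056 to 1224 and 1015 to 1166 CPM. Oligodendrocyte lineage markers summed to 361, 182 to 232 and 215 to 247 CPM, most of it Cnp and Mbp, with 1739 and 887 counts in replicate 2. Markers of other immune cells summed to 5.63, 0.26 to 1.86 and 2.43 to 2.67 CPM. Gfap, Aqp4, Mog, Snap25, Col1a1 and Cd79a, which define astrocytes, oligodendrocytes, neurons, fibroblasts and B cells, lay between 0 and 1.59 CPM in all 6 libraries. Results are given with and without replicate 2 where it bears on them.

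The library numbers in the labels fall into 3 runs, each with 1 library of every group, and the labels do not say what a run stands for. With run as a term in the fit, 2300 genes (17.6%) differed between the runs (edgeR, adjusted p under 0.05). Acod1, the itaconate-making enzyme gene of activated macrophages, stood at 303 to 571 CPM in the 6 acceptor libraries of run 1, 478 to 542 CPM in run 2 and 82.7 to 167 CPM in run 3. Olig1, an oligodendrocyte lineage factor, was 1.05 to 3.60, 3.79 to 7.36 and 21.2 to 36.7 CPM in the same order, so run 3 stood apart from the others in both genes. Run 1 holds replicate 3 at 60 min and replicate 2 at 300 min, run 2 replicates 1 and 3, and run 3 replicates 2 and 1. Within runs 1, 2 and 3 the log2 difference between 300 and 60 min was -4.42, -2.27 and -2.01 for Fosb and -2.11, -0.91 and -0.86 for Junb. It was -0.07, -0.61 and -1.10 for Fos, -1.40, -0.98 and -4.73 for Nr4a1, and -0.93, -0.55 and -1.30 for Vegfa. All 5 genes, described below, were thus lower at 300 min in each run.

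**Figure D1:**
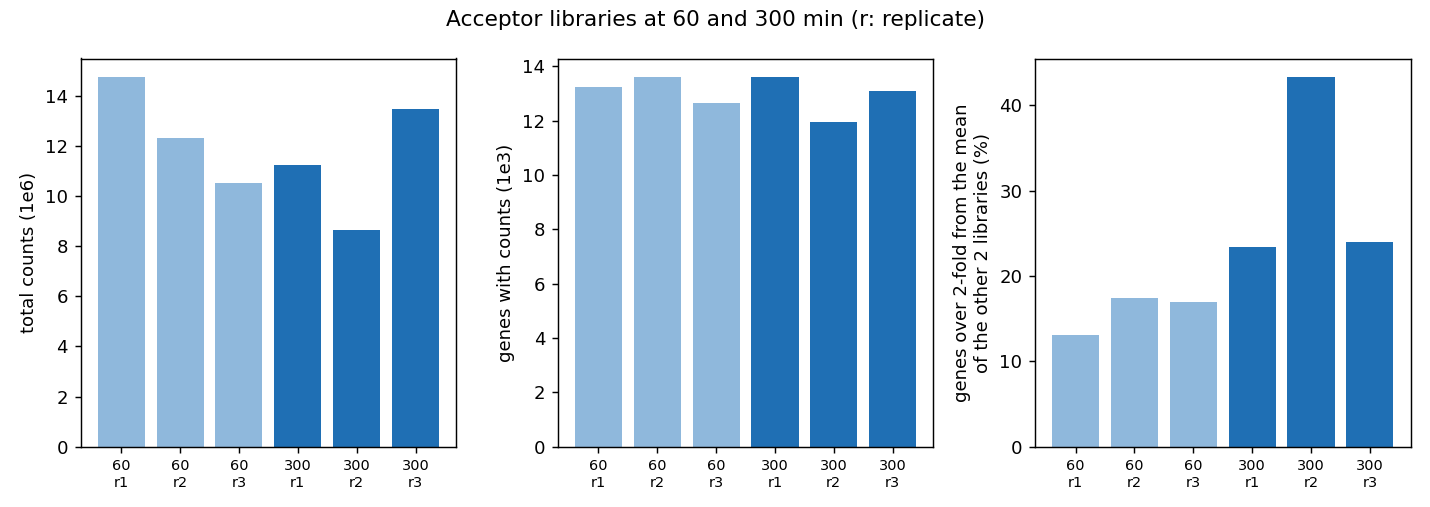
Total counts, genes with counts (units on the axes) and the percentage of genes more than 2-fold from the mean of the other 2 libraries, 1 bar for each acceptor library at 60 min (light) and 300 min (dark). Replicate 2 at 300 min has the lowest bar for counts (8649169) and for genes (11951) and the highest bar for the percentage (43.3%).

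No gene passed the adjusted threshold between 300 and 60 min. Of 13034 genes tested, 0 (0%) had an adjusted p under 0.05 (edgeR, quasi-likelihood fit, p-values adjusted by the Benjamini-Hochberg method), and the smallest adjusted p was 0.401. At an unadjusted p under 0.05 there were 325 genes lower (2.49%) and 841 genes higher (6.45%) at 300 min. Without replicate 2 at 300 min, again 0 genes passed (smallest adjusted p 0.68), and 96 genes were lower (0.737%) and 124 higher (0.951%) at an unadjusted p under 0.05. DESeq2 on the same groups called 7 genes, 2 lower (Fosb and Gm12758) and 5 higher (Chst1, Jak3, Lcn2, Pard6a and Pecam1). limma called 0 genes, with 989 at an unadjusted p under 0.05. The differences below are therefore given as levels and fitted values, with unadjusted p-values, and none is a call by the edgeR test.

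Fosb, a Fos family subunit of AP-1 (chr7:19302696-19310051, minus strand), had the smallest p in a list of 32 early genes. Its level at 60 min was 14.7, 6.06 and 9.0 CPM in replicates 1, 2 and 3, from 240, 88 and 104 counts. At 300 min it was 1.37, 0.262 and 2.91 CPM, from 18, 2 and 42 counts. All 3 late libraries lay below all 3 libraries at 60 min, and the counts of replicate 2 were under the floor of 3. The fitted log2 difference was -2.62 (SE 0.65, unadjusted p = 0.00029, adjusted p = 0.451, edgeR), and -2.20 (SE 0.69, unadjusted p = 0.00312, edgeR) without replicate 2. At 0 min Fosb stood at 1.69, 2.40 and 2.72 CPM, a range that overlaps the late libraries, and at 150 min at 2.28, 4.56 and 3.89 CPM.

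Junb, the AP-1 subunit of the Jun family (chr8:84974484-84978718, minus strand), had the smallest p among genes that also stood higher at 15 and 30 min. Its level was 179, 188 and 213 CPM at 0 min and 404, 358 and 305 CPM at 60 min. By 150 min it was 350, 218 and 186 CPM, and at 300 min 197, 70.5 and 215 CPM. Replicates 1 and 3 at 300 min were near the 0 min values, replicate 2 was below them, and no late library reached a library at 60 min. The fitted log2 difference was -1.14 (SE 0.29, unadjusted p = 0.000355, adjusted p = 0.451, edgeR), and -0.79 (SE 0.26, unadjusted p = 0.005, edgeR) without replicate 2.

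Fos itself (chr12:85473890-85477273, plus strand) stayed above its starting level. It stood at 72.1, 81.0 and 75.9 CPM at 0 min, at 191, 236 and 163 CPM at 60 min and at 110, 155 and 125 CPM at 300 min. The late libraries were all below those at 60 min and all above those at 0 min. Of the mean excess over 0 min that Fos had at 60 min, 44.7% was left at 300 min, and 34.2% without replicate 2. The fitted log2 difference between 300 and 60 min was -0.60 (SE 0.40, unadjusted p = 0.149, edgeR) and -0.74 (SE 0.46, unadjusted p = 0.117, edgeR) without replicate 2, so it did not pass even the unadjusted threshold.

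The other AP-1 genes differed from these. Fosl2, a further Fos family member, stood at 67.1, 106 and 62.1 CPM at 60 min and at 53.6, 28.8 and 61.0 CPM at 300 min, and 48.9% of its excess over 0 min was left. Its groups did not overlap, though replicate 3 at both times lay close together, and the log2 difference was -0.71 (SE 0.49, unadjusted p = 0.157, edgeR). Without replicate 2 at 300 min it was -0.45 (SE 0.54, unadjusted p = 0.412, edgeR), with 64.7% of the excess left. Jun, the founding Jun subunit, stood at 57.3, 67.8 and 58.2 CPM at 0 min, 50.7, 64.8 and 49.3 CPM at 60 min and 60.6, 34.7 and 49.2 CPM at 300 min, with no group clear of another. Jund, the constitutive Jun subunit, was 113, 113 and 135 CPM at 60 min and 165, 632 and 119 CPM at 300 min. Its high value was that of replicate 2 alone, and the log2 difference of 1.34 (SE 0.36, unadjusted p = 0.000688, edgeR) became 0.23 (SE 0.26, unadjusted p = 0.377, edgeR) without it.

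**Figure D2:**
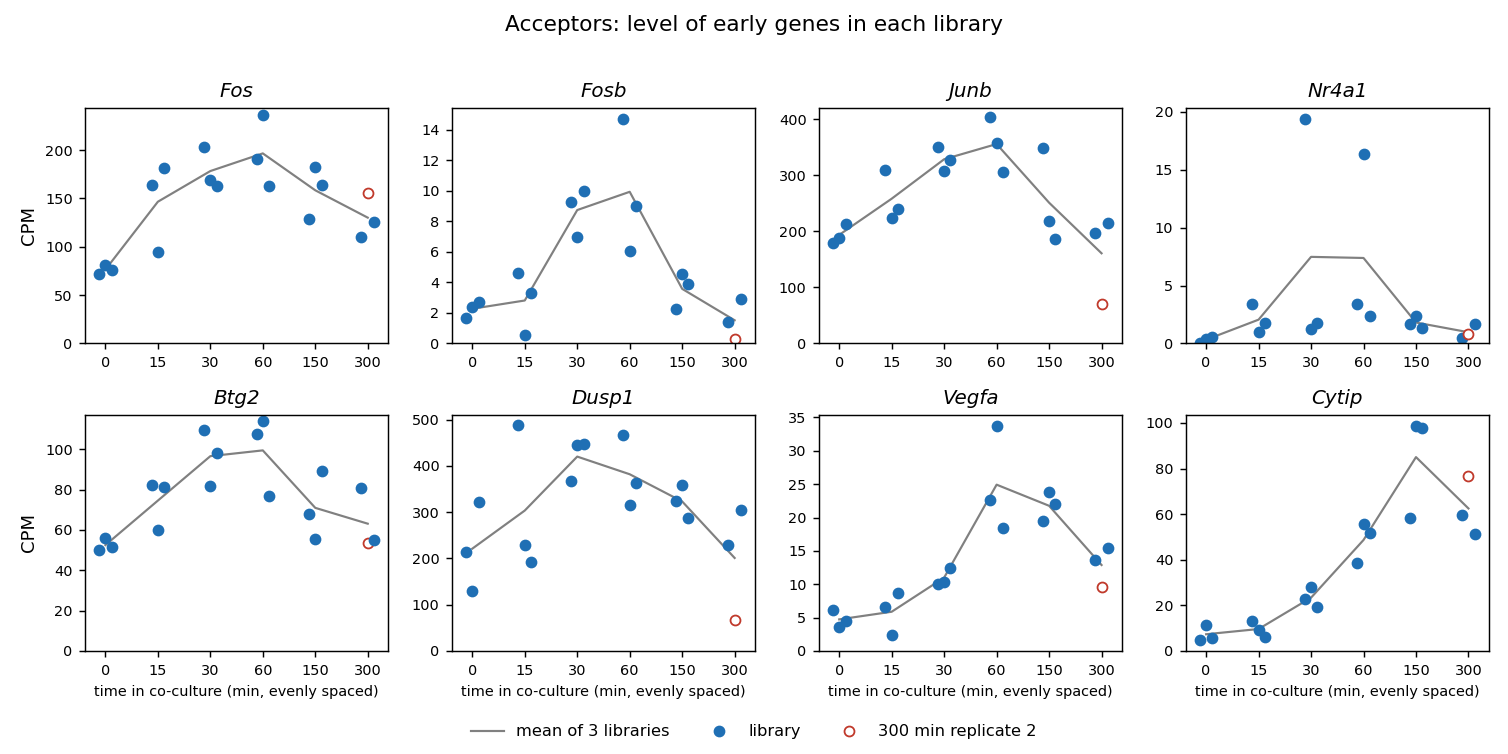
Level (CPM, linear axis from 0) of 8 genes in every acceptor library against time in co-culture (min, times evenly spaced), with a grey line through the group means and an open red circle for replicate 2 at 300 min. Fosb, Junb and Dusp1 are at or near their 0 min range in replicates 1 and 3 at 300 min. Nr4a1 is within that range in replicate 1 and above it in replicate 3. Fos and Vegfa lie between their 0 and 60 min ranges, and Cytip is at 51.1 to 76.6 CPM.

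Nr4a1, an orphan nuclear receptor of the immediate early class (chr15:101254269-101274795, plus strand), was a low transcript with wide spread. Its level was 0, 0.386 and 0.577 CPM at 0 min, 3.43, 16.4 and 2.34 CPM at 60 min and 0.458, 0.786 and 1.67 CPM at 300 min. The groups at 60 and 300 min did not overlap, but replicate 2 at 60 min, like replicate 1 at 30 min with 19.4 CPM, carried most of the mean. The log2 difference was -2.90 (SE 1.08, unadjusted p = 0.0116, edgeR) and -2.78 (SE 1.27, unadjusted p = 0.0356, edgeR) without replicate 2 at 300 min. Without replicate 2 at 60 min it was -1.55 (SE 1.11, unadjusted p = 0.174, edgeR). Nr4a2, of the same family, stood at 27.0, 14.2 and 18.2 CPM at 60 min and at 6.80, 2.23 and 13.2 CPM at 300 min. Its groups did not overlap either, with a log2 difference of -1.40 (SE 1.08, unadjusted p = 0.203, edgeR), or -0.99 (SE 1.2, unadjusted p = 0.418, edgeR) without replicate 2 at 300 min.

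Btg2, an antiproliferative cofactor, had the tightest error of the early genes named so far. Its level was 50.0, 56.0 and 51.5 CPM at 0 min, 108, 114 and 77.1 CPM at 60 min and 80.7, 53.5 and 55.2 CPM at 300 min. Replicate 1 at 300 min lay just above replicate 3 at 60 min, so the groups overlapped, and the other late libraries were back in the 0 min range. The log2 difference was -0.66 (SE 0.22, unadjusted p = 0.00483, edgeR), and -0.55 (SE 0.24, unadjusted p = 0.0271, edgeR) without replicate 2. Atf3, a stress-induced bZIP factor, was 146, 116 and 182 CPM at 60 min and 123, 54.2 and 119 CPM at 300 min, but it had been 144, 129 and 210 CPM at 0 min already. Its log2 difference of -0.58 (SE 0.27, unadjusted p = 0.0399, edgeR) became -0.29 (SE 0.27, unadjusted p = 0.286, edgeR) without replicate 2 at 300 min and -0.41 (unadjusted p = 0.184, edgeR) without replicate 3 at 60 min. Bhlhe40, a repressor of the basic helix-loop-helix class, was 4.11, 4.40 and 7.88 CPM at 60 min and 1.68, 1.57 and 2.91 CPM at 300 min. Its groups did not overlap, yet its 0 min libraries, at 3.66, 1.47 and 6.51 CPM, covered nearly the whole range. Between 300 and 60 min it differed by -1.37 on the log2 scale (SE 0.46, unadjusted p = 0.00565, edgeR), and -1.23 (SE 0.52, unadjusted p = 0.025, edgeR) without replicate 2.

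Not every classical immediate early gene took part. Egr1, a zinc-finger factor that responds to growth signals, stood at 12.2, 12.9 and 12.3 CPM at 0 min, 10.7, 16.4 and 10.7 CPM at 60 min and 12.1, 4.19 and 12.4 CPM at 300 min. The low library at 300 min was replicate 2, and the log2 difference of -0.39 (SE 0.43) became -0.04 (SE 0.44) without it. Ier2, a nuclear early protein, was 24.5, 34.4 and 20.5 CPM at 60 min and 29.2, 12.2 and 26.4 CPM at 300 min, a log2 difference of -0.22 (SE 0.33) that turned to 0.07 (SE 0.34) without replicate 2. Egr2, a relative of Egr1, was 18.9, 12.9 and 7.88 CPM at 60 min and 10.1, 7.07 and 10.4 CPM at 300 min, with overlapping groups.

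Of 35 immediate early transcription factors tested, 7 were lower and 1 higher at 300 min at an unadjusted p under 0.05, against 2.49% and 6.45% of all genes. The 7 were Fosb, Fosl1, Junb, Nr4a1, Atf3, Btg2 and Bhlhe40, and the higher gene was Jund. Fosl1 was a low transcript, with 6, 16 and 0 counts in replicates 1, 2 and 3 at 60 min and 0 in every library at 300 min. In 8 of the 35 all late libraries lay below all libraries at 60 min, and in 0 all lay above, against 3.81% and 3.82% of all genes. The median log2 difference over the list was -0.39, beside 0.01 over all genes tested. Without replicate 2, 5 were lower (Fosb, Junb, Nr4a1, Btg2 and Bhlhe40) and 1 higher (Cebpd), against 0.737% and 0.951% of all genes. The median was then -0.22, beside 0.00 over all genes tested. A list of 32 early genes also takes in feedback genes and cytokines. Of these, 6 were lower and 0 higher at that threshold, against 2.49% and 6.45% of all genes, with a median of -0.43. Without replicate 2, 3 were lower and 0 higher, against 0.737% and 0.951% of all genes, and the median was -0.30. None passed the adjusted threshold, and each list was chosen with results of these data known.

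**Figure D3:**
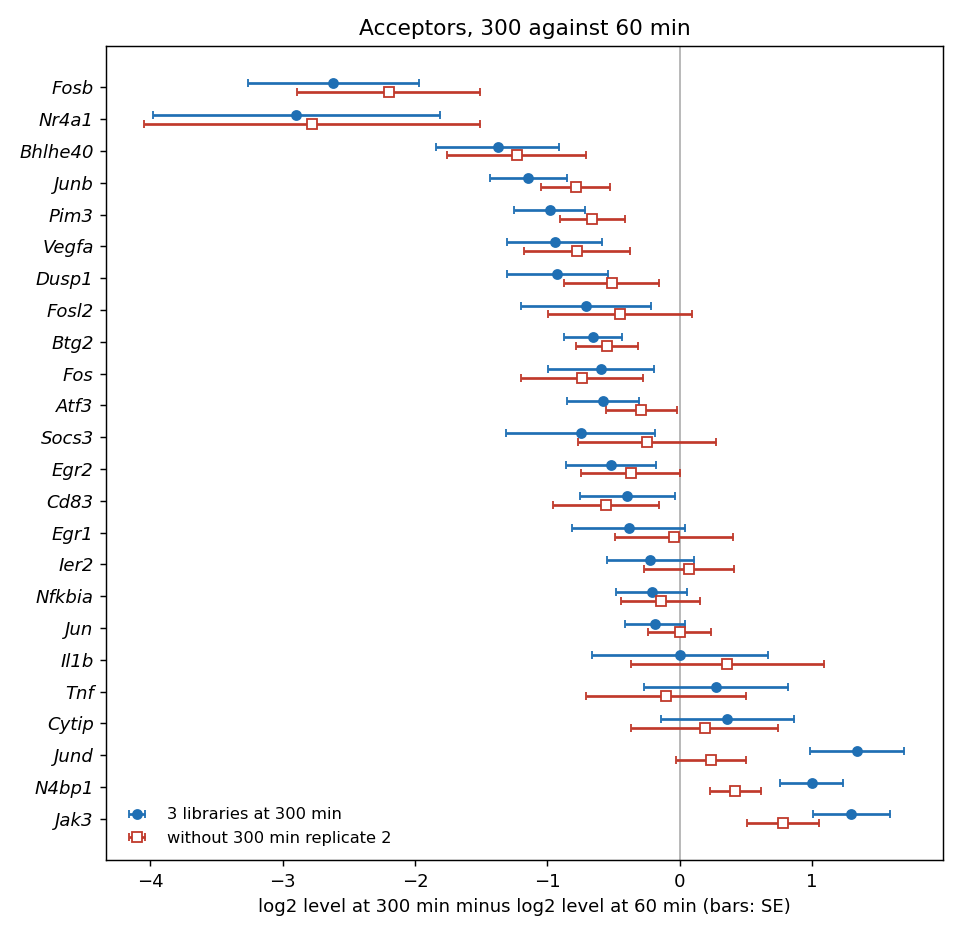
Fitted log2 level at 300 min minus that at 60 min in acceptors, with its SE as a bar, for 24 named genes, from all 6 libraries (blue circles) and without replicate 2 at 300 min (open red squares). Fosb, Nr4a1, Junb, Pim3 and Btg2 stay below 0 by more than the SE in both fits, while Jund moves from 1.34 to 0.23 and Jun, Ier2 and Egr1 lie near 0 in the second.

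Feedback genes of the MAP kinase pathway pointed the same way but leaned more on replicate 2. Dusp1 encodes a nuclear phosphatase that inactivates p38 and JNK. It stood at 213, 129 and 322 CPM at 0 min, 468, 315 and 363 CPM at 60 min and 230, 67.7 and 306 CPM at 300 min, so that replicate 3 at 300 min was just below the lowest library at 60 min. The log2 difference was -0.92 (SE 0.38, unadjusted p = 0.0205, edgeR), and -0.51 (SE 0.36, unadjusted p = 0.162, edgeR) without replicate 2. Without replicate 1 at 60 min it was -0.75 (unadjusted p = 0.0818, edgeR). Dusp2, a phosphatase of haematopoietic cells, was 17.5, 15.6 and 20.7 CPM at 60 min and 20.0, 1.70 and 13.3 CPM at 300 min, with replicate 2 far the lowest and replicate 3 also below the 60 min libraries. Spry2, an inhibitor of receptor tyrosine kinase signalling, was 12.7, 18.6 and 7.36 CPM at 60 min and 9.70, 7.34 and 10.9 CPM at 300 min, with overlapping groups. Of 17 feedback genes tested, 2 were lower (Dusp1 and Dusp5) and 0 higher at an unadjusted p under 0.05, against 2.49% and 6.45% of all genes. Dusp5 was near the floor, with 8, 3 and 1 counts in replicates 1, 2 and 3 at 60 min and 0 in every library at 300 min. In 3 every late library lay below every library at 60 min, against 3.81% of all genes, and the median log2 difference was -0.38. Without replicate 2, 0 passed that threshold, against 0.737% of all genes lower and 0.951% higher, and the median was -0.27.

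Factors that act on the decay of cytokine mRNA mostly did not pass the unadjusted threshold. Zfp36, which encodes the destabilising factor tristetraprolin, stood at 29.2, 59.5 and 25.8 CPM at 60 min and at 14.4, 2.36 and 30.2 CPM at 300 min. Replicate 3 was not low, and the log2 difference of -1.26 (SE 0.67, unadjusted p = 0.0671, edgeR) became -0.78 (SE 0.69, unadjusted p = 0.266, edgeR) without replicate 2. Elavl1, whose protein HuR stabilises mRNAs with AU-rich elements and so acts in the opposite sense, was 44.8, 34.1 and 33.1 CPM at 60 min and 31.9, 17.3 and 26.8 CPM at 300 min, with no overlap. Its unadjusted p was 0.0157 by edgeR, 0.126 without replicate 2 at 300 min and 0.102 without replicate 1 at 60 min. Of 22 decay factors tested, 1 (Elavl1) was lower and 0 higher at an unadjusted p under 0.05, against 2.49% and 6.45% of all genes. Without replicate 2 there were 0, against 0.737% of all genes lower and 0.951% higher. The median log2 difference was -0.24, or -0.14 without replicate 2.

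Vegfa and Cytip carried the only adjusted calls of acceptors at 60, 150 and 300 min against 0 min, and they parted after 60 min. Vegfa, the vascular endothelial growth factor, stood at 6.10, 3.55 and 4.54 CPM at 0 min and at 22.6, 33.8 and 18.4 CPM at 60 min. Against 0 min it rose by 2.39 on the log2 scale at 60 min (SE 0.38, adjusted p = 0.00548, edgeR), where it was the only call (0.00767% of genes), and by 2.20 at 150 min (SE 0.38, adjusted p = 0.0116, edgeR). At 300 min it was 13.7, 9.56 and 15.4 CPM, below every library at 60 min and above every library at 0 min, with 40.4% of the excess left and 48.6% without replicate 2. The log2 difference between 300 and 60 min was -0.95 (SE 0.36, unadjusted p = 0.0132, adjusted p = 0.508, edgeR), and -0.78 (SE 0.40, unadjusted p = 0.0617, edgeR) without replicate 2. Without replicate 2 at 60 min it was -0.66 (unadjusted p = 0.0997, edgeR). The comparisons with 0 min share the 60 or 300 min libraries with this difference and are given beside it only as levels.

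Cytip, a cytohesin-binding regulator of leukocyte adhesion, showed no such return. Its level was 4.61, 11.6 and 5.77 CPM at 0 min, 38.4, 55.8 and 51.8 CPM at 60 min, 58.5, 98.7 and 97.8 CPM at 150 min and 59.7, 76.6 and 51.1 CPM at 300 min. It rose against 0 min by 3.54 on the log2 scale at 150 min (SE 0.56, adjusted p = 0.0045, edgeR), where it and Vegfa were the only calls (0.0153% of genes). At 300 min it rose by 3.09 against 0 min (SE 0.55, adjusted p = 0.0365, edgeR) and was the only call (0.00767%). That call includes replicate 2, the highest late library at 76.6 CPM, and its adjusted p without replicate 2 is not given here. Cytip in replicates 1 and 3 at 300 min also stood above every library at 0 min. Its late libraries overlapped those at 60 min, with a log2 difference of 0.36 (SE 0.50, unadjusted p = 0.477, edgeR). Without replicate 2 this was 0.19 (SE 0.55).

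Pde4b, a cyclic AMP phosphodiesterase, lay between these patterns. It stood at 55.5, 39.8 and 45.0 CPM at 0 min, 113, 148 and 191 CPM at 60 min and 77.9, 96.0 and 109 CPM at 300 min. The late libraries lay in the gap between the earlier groups without touching either, and 45.7% of the excess was left, or 44.8% without replicate 2. The log2 difference was -0.68 (SE 0.43, unadjusted p = 0.124, edgeR) and -0.69 (SE 0.49) without replicate 2. Rims3, which encodes a protein of synaptic vesicle release, was 1.23, 1.93 and 1.82 CPM at 60 min and 1.07, 0.655 and 0.278 CPM at 300 min, with the same log2 difference of -1.30 with replicate 2 (unadjusted p = 0.0192, edgeR) and without it (unadjusted p = 0.0382, edgeR). Without replicate 3 at 300 min it was -0.90 (unadjusted p = 0.124, edgeR).

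The early genes were also taken as a set that uses no library of the late comparison. No gene passed the adjusted threshold in the mean of 15 and 30 min against 0 min (edgeR), with 181 genes (1.39%) at an unadjusted p under 0.05. With run as a term 1 gene passed, Rims3, at a log2 difference of 2.35 (SE 0.42, adjusted p = 0.0393, edgeR). The 77 that were higher there at an unadjusted p under 0.05 (0.591% of the genes tested) are called early-high below, a definition chosen after seeing that the adjusted set was empty. At the same threshold 104 genes (0.798%) were lower at 15 and 30 min. At 300 against 60 min, 11 of the 77 (14.3%) were lower at an unadjusted p under 0.05, against 2.49% of all genes, and 1 was higher (Spic), against 6.45% of all genes. The 11 were Btg2, Dusp1, Fem1c, Gpalpp1, Junb, Nr4a1, Rims3, Vegfa, Zfp64, Gm33045 and 9530062K07Rik.

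In 16 of the 77 early-high genes (20.8%) every late library lay below every library at 60 min, against 3.81% of all genes, and in 3 above. The log2 difference was negative in 49 (63.6%), against 49.1% of all genes, and its median was -0.27 beside 0.01. For the same 77 genes without replicate 2, 8 were lower and 1 higher at an unadjusted p under 0.05, against 0.737% and 0.951% of all genes. The median was then -0.16, and 16 had no overlap and were lower (20.8% against 6.13% of all genes) while 10 were higher without overlap, against 7.54%. Of the 32 early-high genes with a mean of at least 5 CPM at 15 and 30 min, 25 had a negative log2 difference (78.1%), against 48.7% of the 8569 genes tested at that level. Of the 32, 6 were lower (18.8%, against 2.88% of those 8569) and 0 higher at an unadjusted p under 0.05. For the same 32 genes without replicate 2, 25 were negative, 3 lower (9.38%, against 0.455%) and 0 higher. When the early set was chosen without replicate 2 at 0 min, it held 126 genes, of which 6 were lower, and the median was 0.03, so the direction of the median rests on that library.

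**Figure D4:**
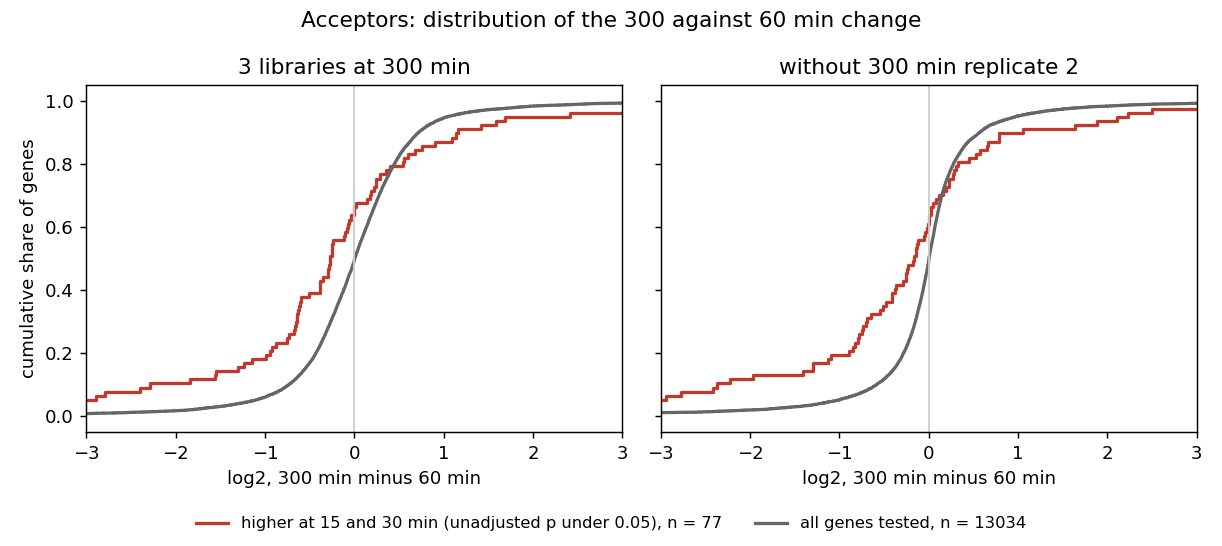
Cumulative share of genes against the fitted log2 difference between 300 and 60 min in acceptors, for the 77 early-high genes (red) and all 13034 genes tested (grey), from all libraries (left) and without replicate 2 at 300 min (right). The red line lies left of the grey line at negative values in both panels, with medians of -0.27 and -0.16 against 0.01 and 0.00, and crosses it at positive values. The axis ends at -3 and 3.

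Inflammatory cytokines and chemokines showed no common direction. Il1b, the cytokine interleukin-1 beta, stood at 119, 50.9 and 105 CPM at 0 min, 289, 248 and 260 CPM at 60 min and 256, 117 and 425 CPM at 300 min. The late libraries spread on both sides of the earlier ones, and the log2 difference was 0.00 (SE 0.67), with a sign that depended on the setting. Tnf, tumour necrosis factor, was 76.6, 30.3 and 98 CPM at 60 min and 41.5, 121 and 85.6 CPM at 300 min, and Ccl3, a chemokine for monocytes, 752, 185 and 544 CPM and then 227, 1072 and 572 CPM. Both overlapped throughout, though within runs 1, 2 and 3 Tnf was higher at 300 than at 60 min by 0.30, 0.16 and 0.45 on the log2 scale. Both had libraries as high at 0 min, with 137 CPM for Tnf and 874 CPM for Ccl3 in replicate 3. Cxcl2, a neutrophil chemokine, was 219, 243 and 228 CPM at 60 min and 186, 46.5 and 264 CPM at 300 min, with replicate 2 far the lowest, replicate 1 also below the 60 min libraries and replicate 3 above them.

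Cd83, a surface marker of activation, had groups that did not overlap. It stood at 87.7, 99.5 and 90.9 CPM at 0 min, 172, 151 and 158 CPM at 60 min and 110, 148 and 108 CPM at 300 min, a log2 difference of -0.40 (SE 0.36, unadjusted p = 0.274, edgeR), or -0.56 (SE 0.40, unadjusted p = 0.177, edgeR) without replicate 2. Of 30 inflammatory cytokines and mediators tested, 1 was lower (Vegfa) and 1 higher (Lcn2) at an unadjusted p under 0.05. Over all genes these shares were 2.49% and 6.45%. Without replicate 2, 0 were lower and 1 higher, against 0.737% and 0.951% of all genes. The median was 0.00 with and without replicate 2. Of 12 CC chemokines 0 were lower and 1 higher, Ccl17, which held counts in replicate 2 only, and the median of 0.29 became -0.15 without that library. Of 8 CXC chemokines 0 passed in either direction, with a median of -0.27, or -0.38 without replicate 2.

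Among NF-kB subunits and inhibitors the inhibitor genes were mixed. Nfkbia, which encodes IκBα, was 472, 457 and 703 CPM at 60 min and 428, 424 and 556 CPM at 300 min. It had been 539, 431 and 551 CPM at 0 min, so its groups overlapped at all of these times. Tnfaip3, which encodes the deubiquitinase A20, stood at 6.07, 6.06 and 6.32 CPM at 60 min and at 1.60, 0.262 and 4.58 CPM at 300 min. The groups did not overlap, with a log2 difference of -1.42 (SE 0.70, unadjusted p = 0.0499, edgeR), and -0.98 (SE 0.73, unadjusted p = 0.191, edgeR) without replicate 2. That p was also above 0.05 when any single library other than replicate 3 at 300 min was left out. Of 27 members tested, 2 were lower (Tnfaip3 and Tnip2) and 2 higher (N4bp1 and Ikbke) at an unadjusted p under 0.05. Over all genes these shares were 2.49% and 6.45%. Without replicate 2, 0 were lower and 1 higher, against 0.737% and 0.951% of all genes, and the median of 0.07 became -0.11.

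The JAK-STAT list held genes that differed in both directions with and without replicate 2. Pim3, a serine kinase downstream of STAT signals, stood at 36.1, 31.7 and 31.1 CPM at 60 min and at 22.2, 7.86 and 19.4 CPM at 300 min, against 24.8, 21.7 and 22.1 CPM at 0 min. Its late libraries lay clear of those at 60 min, with a log2 difference of -0.98 (SE 0.27, unadjusted p = 0.000779, edgeR), and -0.66 (SE 0.25, unadjusted p = 0.0114, edgeR) without replicate 2. Stat5b, a transcription factor of cytokine signalling, had narrow groups, at 20.2, 21.1 and 18.9 CPM and then 13.8, 12.8 and 14.2 CPM. Its 0 min level was 15.0, 12.1 and 13.9 CPM, and its log2 difference was -0.56 (SE 0.21, unadjusted p = 0.0136, edgeR), or -0.52 (SE 0.24, unadjusted p = 0.0347, edgeR) without replicate 2.

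Jak3 and Il4ra, a kinase and a receptor chain of the interleukin-4 pathway, stood higher at the late time. Jak3 was 10.7, 8.60 and 6.58 CPM at 60 min and 16.7, 34.5 and 13 CPM at 300 min, a log2 difference of 1.30 (SE 0.29, unadjusted p = 0.000102, adjusted p = 0.444, edgeR), and 0.78 (SE 0.27, unadjusted p = 0.00779, edgeR) without replicate 2. Since it had been 13.2, 13.2 and 16.9 CPM at 0 min, replicates 1 and 3 at 300 min lay in or near that range. Il4ra was 72.5, 95.2 and 90.7 CPM at 60 min and 133, 227 and 105 CPM at 300 min, a log2 difference of 0.85 (SE 0.22, unadjusted p = 0.000496, edgeR), and 0.47 (SE 0.20, unadjusted p = 0.0274, edgeR) without replicate 2. Neither gene's groups overlapped, and replicate 2 was the highest in each. Socs3, the feedback inhibitor of the pathway, was 9.75, 16.9 and 12.6 CPM at 60 min and 8.40, 0.655 and 13.6 CPM at 300 min, overlapping, with 4.40, 1.39 and 3.79 CPM at 0 min. Of 28 members tested, 2 were lower and 2 higher at an unadjusted p under 0.05, against 2.49% and 6.45% of all genes, with a median of 0.06. Without replicate 2 the counts were again 2 and 2, against 0.737% and 0.951% of all genes, with a median of -0.02.

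The lists with many higher genes at 300 min kept few or none without replicate 2. Of 31 glycolysis and HIF-1 target genes tested, 9 were higher and 0 lower at an unadjusted p under 0.05, against 6.45% and 2.49% of all genes, among them the lactate exporter gene Slc16a3, the phosphofructokinase gene Pfkl and the aldolase gene Aldoa. Without replicate 2, 1 was higher (Ankrd37), against 0.951% of all genes, and the median went from 0.35 to 0.15. Slc16a3 was 53.4, 39.8 and 68.1 CPM at 60 min and 70.9, 203 and 84.5 CPM at 300 min, without overlap. Its log2 difference of 1.15 (SE 0.31, unadjusted p = 0.00066, edgeR) became 0.53 (SE 0.28, unadjusted p = 0.0649, edgeR).

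The colony-stimulating factor receptor gene Csf1r, which macrophages need to survive, was 2921, 2390 and 2479 CPM at 60 min and 3116, 8696 and 2729 CPM at 300 min. Of 24 homeostatic microglia genes 5 were higher at an unadjusted p under 0.05, against 6.45% of all genes, and 0 without replicate 2, against 0.951%. For the 50 interferon-stimulated genes these counts were 3 and 0, for 25 oxidative stress genes 4 and 0, and for 42 lysosome genes 5 and 0. In the lower direction the count was 1 lysosome gene with replicate 2 and 0 in the homeostatic, interferon-stimulated and oxidative stress lists. Of 24 heat shock and chaperone genes, 0 were lower and 2 higher, against 2.49% and 6.45% of all genes. In 4 of them (Hspd1, Cryab, Hspa9 and Cct2) the late libraries lay lower without overlap, against 3.81% of all genes. Without replicate 2 that count was also 4, against 6.13%. Disease-associated microglia genes (24), cholesterol efflux genes (12) and cell cycle genes (40) held 0 in either direction, sterol and fatty acid synthesis genes (28) and stress response genes of the unfolded protein pathway (29) 1 in each, and ribosomal protein genes (40) 0 lower and 2 higher. Without replicate 2 none of these 7 lists held a gene at an unadjusted p under 0.05 in the edgeR test.

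Lcn2 and Pecam1 differed with and without replicate 2. Lcn2, which encodes the iron-siderophore binder lipocalin 2, was 0.123, 0.413 and 0.260 CPM at 60 min, from 2, 6 and 3 counts, and 3.74, 1.70 and 0.902 CPM at 300 min, from 49, 13 and 13 counts. The log2 difference was 2.98 (SE 0.73, unadjusted p = 0.000253, adjusted p = 0.451, edgeR), and 3.09 (SE 0.78, unadjusted p = 0.000391, edgeR) without replicate 2. Its 0 min libraries, at 2.71, 0.618 and 0.165 CPM, spanned most of this range, and donors held 1162, 858 and 1128 CPM at 300 min. Pecam1, an adhesion gene of endothelial cells and leukocytes, had 0, 1 and 0 counts at 60 min and 15, 17 and 28 counts at 300 min, with 0, 11 and 1 counts at 0 min. It had the smallest p of all genes (unadjusted p = 3.07e-05, adjusted p = 0.401, edgeR), at a level where 3 counts are the floor. Without replicate 2 the unadjusted p was 0.000104 (edgeR).

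The 150 min libraries divide the late interval into steps. No gene passed the adjusted threshold in either step (edgeR), and at an unadjusted p under 0.05 there were 75 genes (0.575%) lower at 150 than at 60 min and 238 (1.83%) lower at 300 than at 150 min. Fosb, Btg2, Pim3 and Stat5b were already lower at 150 min than at 60 min at an unadjusted p under 0.05, with log2 differences of -1.47 (SE 0.60), -0.49 (SE 0.22), -0.70 (SE 0.26) and -0.57 (SE 0.21). Vegfa, Junb and Rims3 passed that threshold in the step from 150 to 300 min, with -0.75 (SE 0.36), -0.64 (SE 0.29) and -1.18 (SE 0.53). Without replicate 2 at 300 min none of the 3 passed, with -0.58 (SE 0.40), -0.29 (SE 0.26) and -1.17 (SE 0.60), and 74 genes (0.568%) were lower in that step. The steps share the 150 min libraries, and the difference between the steps was not tested.

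Donors at 60 and 300 min, which held alpha-synuclein, gave the same comparison in the partner cells. There, 0 genes passed the adjusted threshold, with 343 at an unadjusted p under 0.05 (2.63%, edgeR). Fosb in donors was 34.1, 14.9 and 25.6 CPM at 60 min and 3.45, 4.32 and 11.7 CPM at 300 min, a log2 difference of -1.93 (SE 0.60, unadjusted p = 0.00286, edgeR) beside -2.62 in acceptors. Cytip was 17.0, 16.0 and 35.6 CPM and then 11.2, 7.17 and 8.90 CPM in donors, a log2 difference of -1.33 (SE 0.53) beside 0.36 in acceptors. Donor groups did not overlap for either gene, and both were lower at the late time.

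The test of the acceptor change minus the donor change called 0 genes (smallest adjusted p 0.934, edgeR), with 597 at an unadjusted p under 0.05 (4.58%) and 284 (2.18%) without replicate 2. The difference for Fosb was -0.69 (SE 0.85, unadjusted p = 0.427, edgeR), an error too wide to tell the cells apart. For Cytip it was 1.69 (SE 0.73, unadjusted p = 0.0261, edgeR), or 1.52 (SE 0.76, unadjusted p = 0.054, edgeR) without replicate 2. For Lcn2 it was 3.02 (SE 0.86, unadjusted p = 0.00128, edgeR), and 3.13 (SE 0.90, unadjusted p = 0.00143, edgeR) without replicate 2. For Stat5b it was -0.75 (SE 0.30, unadjusted p = 0.0191, edgeR), and -0.71 (SE 0.32, unadjusted p = 0.0316, edgeR) without replicate 2. Vegfa, at -0.94 (SE 0.51), Btg2, at -0.59 (SE 0.31), and Junb, at -0.59 (SE 0.40), did not pass the unadjusted threshold. Without replicate 2 these were -0.77 (SE 0.53), -0.49 (SE 0.32) and -0.23 (SE 0.34), and Fosb was at -0.27 (SE 0.85). No change is therefore shown to be particular to acceptors.

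**Figure D5:**
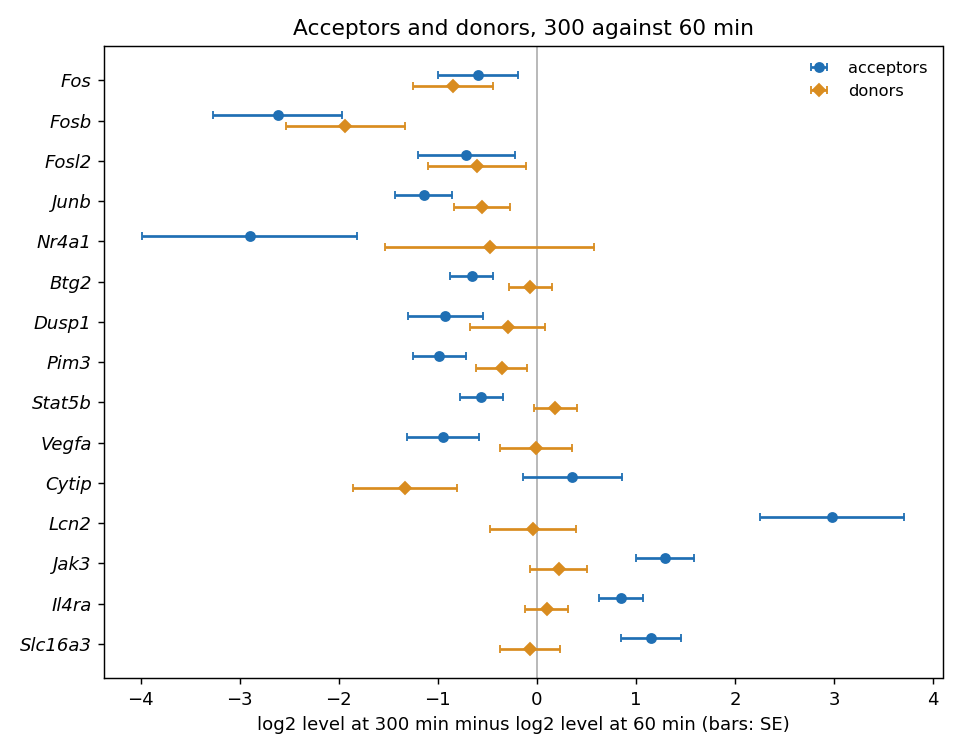
Fitted log2 level at 300 min minus that at 60 min, with its SE as a bar, for 15 named genes in acceptors (blue circles) and donors (orange diamonds). Fosb is below 0 in both (-2.62 and -1.93), Cytip lies at 0.36 in acceptors and -1.33 in donors, and Lcn2 at 2.98 and -0.04.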

How the data were processed

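The authors deposited whole-number counts of QuantSeq 3′ reads per gene, not normalised, for 39 libraries. STAR, Partek, DESeq2 and mm10 are named in the submitters' processing notes, with no version or role. A 3′ tag count does not depend on transcript length, and the sources used here do not give whether counting used strand. The deposited normalised sheet was not used.

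The counts were fitted with edgeR 4.0.16 in R 4.3.3 (quasi-likelihood test, TMM scaling, filterByExpr), with 1 mean per group over all 39 libraries. Of 16144 genes, 13034 were tested, holding 99.97% of reads, and p-values were adjusted by Benjamini-Hochberg (threshold 0.05). CPM use TMM-scaled totals. A SE is the log2 difference divided by the root of F. The common biological coefficient of variation was 0.38, and the median SE of the late difference 0.38, or 0.27 for genes of at least 10 CPM. Floors of 3 counts equal 0.181 to 0.414 CPM per library and cover counting error only. No 2 libraries held identical counts. The fit was tested on simulated counts.

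The named genes are up to 4 of each of 28 gene lists with the smallest late p, plus a list of early genes. Rules on adjusted calls named no gene. Fosl1, Fosl2, Nr4a2, Bhlhe40, Pde4b, Rims3, Cytip and the remaining genes given by name were chosen after their values were seen. Members and lists were chosen with earlier results of these data known. Alternatives were limma 3.58.1, DESeq2 1.42.0, RLE and total-count scaling, no filter, fewer libraries, and leaving out each library. Differences within runs of library numbers and the unadjusted counts were added after seeing the data. Gene positions are from GENCODE on GRCm38, promoters from RefSeq on GRCm38.p6.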

Additional observations from a re-analysis of the deposited data

How the results depend on the processing

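The count of 0 adjusted calls at 300 against 60 min held under RLE scaling, total-count scaling, no filter (16144 genes), acceptor libraries only, only the groups compared and limma, while DESeq2 called 7 genes (2 lower, 5 higher). With each library left out in turn it was 0 to 76 (0 to 11 lower, 0 to 65 higher), and the 76, with Fosb and Junb among the lower genes, came without replicate 3 at 300 min, which leaves replicate 2 as 1 of 2 late libraries. Genes lower at an unadjusted p under 0.05 numbered 497 with limma, 73 with only the groups compared and 96 to 1008 with each library left out. Genes higher numbered 492 with limma, 150 with only the groups compared, 398 with total counts and 124 to 1398 with each library left out. Total-count scaling moved the median log2 difference of all genes to -0.10. Early-high genes that were lower numbered 7 of 79 with limma, 7 of 72 with only the groups compared and 6 of 32 at 5 CPM or more. With each library left out they numbered 6 of 126 to 13 of 84, and their median ran from -0.34 to 0.028. The log2 difference of Il1b was -0.069 with total counts, -0.11 with the replicate block, -0.00041 with acceptor libraries only, -0.18 with limma and -0.52 to 0.36 with each library left out. With each library left out, those of other genes that changed sign ran from -0.39 to 0.000017 for Jun, -0.45 to 0.069 for Ier2, -0.35 to 0.015 for Nfkbia, -0.10 to 0.63 for Tnf and -0.31 to 0.77 for Ccl3. The causes were not tested. The labels give no replicate numbers; 3 runs of library numbers served as the replicate block, which gave 0 calls (1397 at an unadjusted p under 0.05). The deviations of same-run libraries at 60 and 300 min correlated by 0.226, 0.0444 and 0.388, which does not establish pairing, though each library correlated best with its own run. Under the block Rims3 alone passed the adjusted threshold at 15 and 30 min (0 genes without it). There, 15 of 100 early-high genes were lower, beside 377 of all 13034 genes.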
